A study of Mus musculus with 26 samples.

Results

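The Cd209 genes encode C-type lectins, receptors that bind sugars on microbes and on the body's own glycoproteins, and are the mouse relatives of human DC-SIGN. Together with Lyve1, Folr2, Cd163, Mrc1 and Mgl2, which mark resident and alternatively activated macrophages, they form a set of 10 genes, named by symbol and matched to GENCODE identifiers in the tumour values. All 10 were present among 16322 tumour genes, and 6 of them (Cd209a, Cd209d, Lyve1, Cd163, Mrc1 and Mgl2) were present among 14131 genes of the sorted cells, where Cd209f, Cd209g, Cd209b and Folr2 were not analysed here. The set was chosen by the tumour values of Cd209f and Cd209g, which were higher after treatment, so their tumour difference is given below as a description with no test. The question was whether the other resident macrophage genes followed them tumour by tumour.

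RNA was sequenced from KPC mice, a model of pancreatic ductal adenocarcinoma that depends on Cre recombinase in the pancreatic lineage. Whole tumours gave 5 libraries from mice given GS9820 and 7 libraries from mice given vehicle. GS9820 is a drug against p110δ, a catalytic form of phosphoinositide 3-kinase. The treated libraries are labelled 14 days after treatment, and no day is labelled for the vehicle libraries. Monocytes (4 treated and 3 vehicle libraries) and polymorphonuclear cells, or PMN (4 treated and 3 vehicle libraries), were sorted from the spleen of tumour-bearing mice. All mice carried tumours, no age is given, and the labels do not say that each library came from a separate animal, so p-values measure the spread between libraries.

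Resident macrophages settle in a tissue and are maintained there, clearing dead cells, haemoglobin and matrix fragments through endocytic receptors, while other macrophages of a tumour arise from blood monocytes. In the pancreas and its tumours both kinds coexist. Lyve1 and Folr2 are widely used to tell the resident kind apart, although Lyve1 also marks lymphatic endothelium and liver sinusoids. Phosphoinositide 3-kinase δ is the leukocyte-rich form of the enzyme and acts below antigen, cytokine and growth factor receptors.

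Values are the log2 RPKM deposited by the authors, that is reads per kilobase of gene scaled to library size, on a log2 scale, and are called deposited log2 values. They had nearly 1 distribution in every library, so sequencing depth is unknown and no counting interval can be given. Several tumours stood apart. The mean of 15 pan-macrophage genes, such as Csf1r and Adgre1, was lowest in treated tumour 1 (5.99) and highest in vehicle tumour 1 (8.60). The mean of 6 hepatocyte genes was 11.56 in treated tumour 3, 7.13 in treated tumour 1 and 6.48 in vehicle tumour 4, against 0.96 to 3.30 in the other tumours. The mean of 10 B cell genes was 5.61 in treated tumour 4, 4.58 in vehicle tumour 7 and 4.02 in treated tumour 1. Carcinoma epithelial genes, such as Krt19 and Epcam, averaged 7.83 to 9.17 in treated tumours and 4.73 to 9.53 in vehicle tumours. Pancreatic genes differed more between the groups: the mean of 10 islet genes was 5.18 to 8.53 in treated and -0.26 to 6.64 in vehicle tumours, and that of 14 acinar genes 5.34 to 9.89 in treated and 2.55 to 9.45 in vehicle tumours. The part of this tissue makeup in the values below was not tested beyond the covariates named there.

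Cd209f and Cd209g are neighbours at one end of the Cd209 cluster on chromosome 8, and they are close in sequence. In GENCODE M21 (GRCm38, the same assembly as mm10), Cd209f (ENSMUSG00000051906) lies on the minus strand at chr8:4102787-4105835, and Cd209g (ENSMUSG00000079168) lies on the plus strand at chr8:4134098-4137707. Both are protein-coding and are transcribed in opposite directions, with their starts facing each other. Their promoter windows, 250 bases before to 50 after the RefSeq start (GRCm38.p6), are shown because these are the genes that were higher together. Capitals mark runs of at least 8 bases that are identical in the alignment of the pair, and each window reads 5′ to 3′ on its gene's strand. The windows are at chr8:4105715-4106014 (Cd209f, minus strand) and chr8:4134486-4134785 (Cd209g, plus strand), the second lying inside the longer GENCODE interval of the gene.
Cd209f: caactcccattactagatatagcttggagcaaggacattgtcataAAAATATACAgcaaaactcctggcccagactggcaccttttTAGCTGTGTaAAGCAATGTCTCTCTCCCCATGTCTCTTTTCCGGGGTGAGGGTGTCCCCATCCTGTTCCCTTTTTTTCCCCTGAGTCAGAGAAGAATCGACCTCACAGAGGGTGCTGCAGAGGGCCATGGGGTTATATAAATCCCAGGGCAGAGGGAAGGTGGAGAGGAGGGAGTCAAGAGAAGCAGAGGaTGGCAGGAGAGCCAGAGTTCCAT
Cd209g: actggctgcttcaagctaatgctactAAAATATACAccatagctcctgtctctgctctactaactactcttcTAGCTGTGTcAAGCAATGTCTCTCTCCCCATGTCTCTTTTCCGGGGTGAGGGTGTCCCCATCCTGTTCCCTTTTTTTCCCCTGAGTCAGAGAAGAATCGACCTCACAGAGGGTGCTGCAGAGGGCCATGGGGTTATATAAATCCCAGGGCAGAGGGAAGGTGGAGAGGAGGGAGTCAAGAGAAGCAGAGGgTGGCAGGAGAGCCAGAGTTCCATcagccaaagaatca
Of the 300 bases in each window, 222 fell in such runs, and the pair was 91.81% identical over 281 aligned bases. The other 20 pairs among Cd209a to Cd209g were 50.28 to 66.05% identical, with at most 44 bases in such runs.

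Both windows held the letters TGANTCA, bound by AP-1 factors, beginning at position -83 from the Cd209f start and -97 from the Cd209g start. Both also held TATAAA, the core of a TATA box, at -29 in Cd209f and -43 in Cd209g on the gene's strand. Each motif was searched on both strands, and these matches did not overlap each other. TGANTCA was present in 7.79% and TATAAA in 13.6% of 32544 mouse promoter windows of this length. A promoter window was available for 9 of the 10 genes, all but Lyve1. TGANTCA also occurred in Folr2 and TATAAA in Cd209a, there on the minus strand. GAGGAA, bound by PU.1, occurred in Mrc1, Cd209d and Mgl2 and in 28.1% of all windows. TGTTTAC (FoxO, 3.66% of windows) and TGCTGAC (MAF, 4.65%) were in none of the 9 genes' windows. The palindromic STAT6 motif (6.98% of windows) was found in none of the 9 either and in Cd209e, a gene not analysed here.

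The transcripts share sequence too. Of the 2347 different stretches of 100 bases in annotated Cd209f transcripts, 467 (19.9%) also occur in Cd209g, where they make up 11.3% of 4122, and the longest identical stretch runs to 416 bases. Reads from these stretches could be assigned to either gene, and how they were counted is not given in the sources used here. Values of Cd209f and Cd209g are therefore uncertain as separate measurements. Mgl2 shares 91 such stretches (3.95%) with Clec10a, its close relative. No stretch of Cd209a, Cd209b, Cd209d, Lyve1, Folr2, Cd163 or Mrc1 was found in another gene.

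Cd209f and Cd209g were higher in every treated tumour than in any vehicle tumour. Cd209f had deposited log2 values of 3.79, 5.87, 4.89, 5.32 and 5.15 in treated tumours 1 to 5, and in the vehicle tumours its lowest, median and highest values were -0.22, 1.18 and 2.74. Cd209g had 3.53, 4.69, 3.39, 4.54 and 4.06 in treated tumours 1 to 5, against a lowest of -2.75, a median of 0.20 and a highest of 1.45 in vehicle tumours. The groups did not overlap for either gene, and treated tumour 2 was highest for both. Cd209f averaged 5.004 ± 0.77 (SD, n = 5) in treated and 1.15 ± 0.98 (SD, n = 7) in vehicle tumours, a difference of 3.86 ± 0.49 (SE) on the log2 scale, or 14.5-fold. Cd209g averaged 4.04 ± 0.58 (SD, n = 5) in treated and 0.03 ± 1.39 (SD, n = 7) in vehicle tumours, a difference of 4.01 ± 0.62 (SE), or 16.1-fold. In whole tumours, more cells of a type and more RNA per cell cannot be told apart.

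The pan-macrophage mean spanned 5.99 to 8.22 in treated and 6.36 to 8.60 in vehicle tumours. Of its 15 genes 0 passed the limma test described below, 0 had an unadjusted p under 0.05, 8 had a higher treated mean, and the median difference was 0.18. Measured against that mean in the same tumour, Cd209f lay at -3.07 to -1.97 in treated and -7.46 to -5.01 in vehicle tumours, and Cd209g at -4.21 to -2.46 in treated and -10.0 to -6.24 in vehicle tumours. With the pan-macrophage mean as a covariate the differences were 3.81 for Cd209f and 3.96 for Cd209g, and with the acinar mean 3.73 and 4.08. These values restate the difference that chose the set and are a description.

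**Figure D1:**
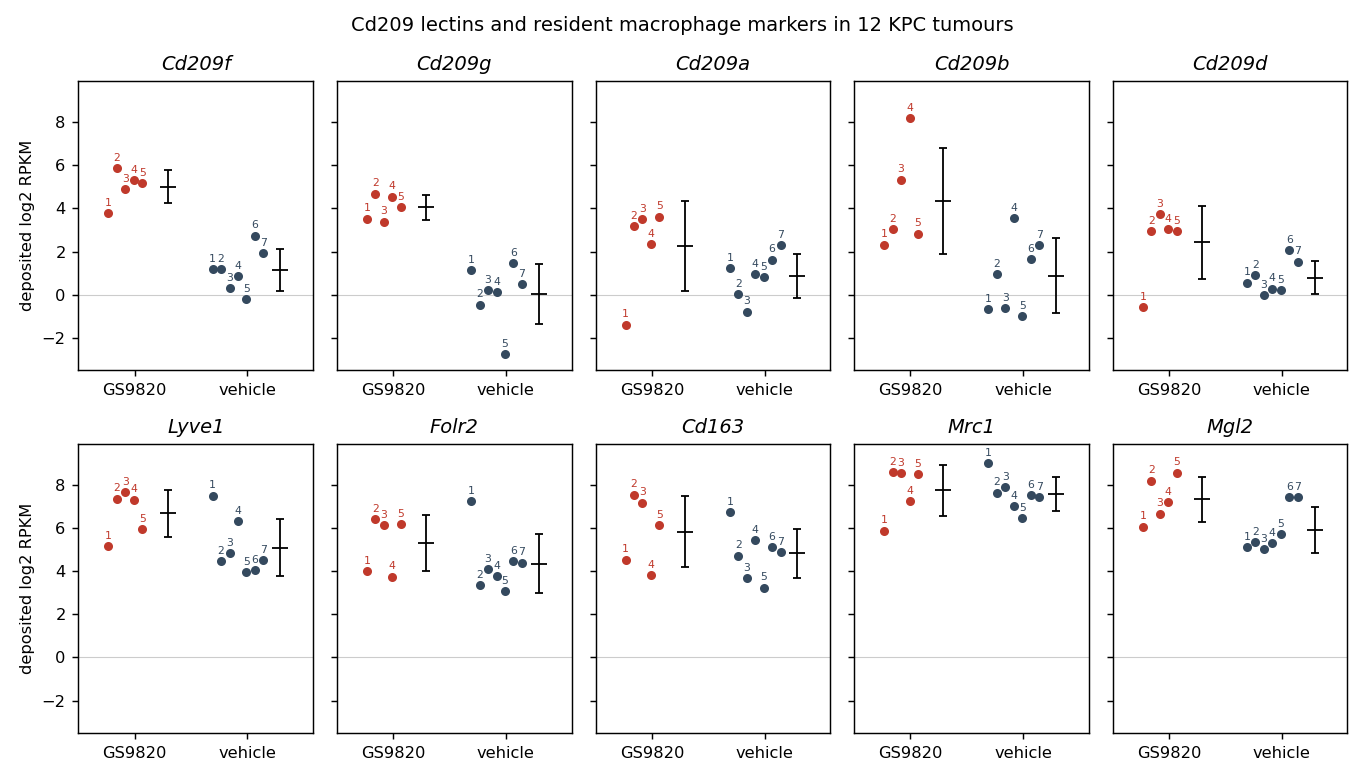
Deposited log2 RPKM (y axis) of the 10 genes in each GS9820 tumour (red) and each vehicle tumour (dark), numbered by replicate, with the mean and SD as a bar. The 5 treated tumours sit above all 7 vehicle tumours for Cd209f and Cd209g, while treated tumour 1 is the lowest of all for Cd209a, Cd209d and Mrc1.

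None of the other 8 genes passed the threshold in the tumours, although all 8 had a higher mean in treated tumours. The test was limma across the 16296 genes kept, with Benjamini-Hochberg adjustment and a threshold of adjusted p 0.05. At that threshold 0.878% of all genes were higher and 1.33% lower in treated tumours (2.2% in either direction), while 0.951% had treated values wholly above and 1.86% wholly below vehicle values, which none of the 8 did. These shares rest on 359 genes, a count that ran from 0 (without treated tumour 4) to 1693 (without vehicle tumour 5) with 1 tumour left out, was 0 with the acinar mean as a covariate and was 2764 with array quality weights. Each gene said below to rise or fall in tumours therefore loses its call without treated tumour 4 and with the acinar covariate. Unadjusted p was under 0.05 for 4 of the 8 (Cd209b, Cd209d, Lyve1 and Mgl2) and for 3982 of the 16296 genes kept, the background for every such count in tumours. The median difference of the 8 was 1.40 on the log2 scale, against -0.06 over all genes, of which 45.3% were positive. The 8 were chosen with results of these tumours known and come from the same contrast as Cd209f and Cd209g, so this count and this median are descriptions.

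Among the other lectins of the cluster, the difference came from most treated tumours but not from all. Cd209a (ENSMUSG00000031494, chr8:3743397-3748984, minus strand), a lectin of dendritic cells and monocyte-derived cells, had -1.39, 3.18, 3.51, 2.34 and 3.62 in treated tumours 1 to 5, against a lowest of -0.78, a median of 0.94 and a highest of 2.28 in vehicle tumours. Treated tumours 2 to 5 lay above every vehicle tumour and treated tumour 1 lay below every one. The difference was 1.38 ± 0.83 (SE; limma, adjusted p = 0.322). Without treated tumour 1 it was 2.29, with a limma adjusted p of 0.0469, and over all 24 settings and left-out libraries adjusted p ran from 0.0469 to 0.504.

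Cd209d (ENSMUSG00000031495, chr8:3871824-3878555, minus strand), a lectin that binds fungal and mycobacterial sugars, repeated that order. It had -0.58, 2.96, 3.73, 3.04 and 2.95 in treated tumours 1 to 5 and a lowest of -0.03, a median of 0.56 and a highest of 2.06 in vehicle tumours. The same treated tumour was below all vehicle tumours and the other 4 were above them. The difference was 1.63 ± 0.67 (SE; limma, adjusted p = 0.164), and it was 2.38 without treated tumour 1 (limma, adjusted p = 0.0226; range over all settings 0.0226 to 0.348). Treated tumour 1 also had the lowest pan-macrophage mean, whose part in these values was not tested beyond the covariate, with which the differences were 1.25 for Cd209a and 1.55 for Cd209d.

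Cd209b (ENSMUSG00000065987, chr8:3917655-3926844, minus strand), the lectin of marginal zone macrophages in the spleen and medullary macrophages in lymph nodes, varied most between tumours. Its values were 2.32, 3.05, 5.33, 8.17 and 2.83 in treated tumours 1 to 5, against a lowest of -0.99, a median of 0.94 and a highest of 3.54 in vehicle tumours. Only treated tumours 3 and 4 exceeded every vehicle tumour. The difference of 3.46 ± 1.07 (SE) was close in size to those of Cd209f and Cd209g but did not pass (limma, adjusted p = 0.0866; range over all settings 0.0359 to 0.245). Cd209b and B cell genes were both high in some tumours and not in others. Treated tumour 4 had 8.17 for Cd209b and a B cell mean of 5.61, while treated tumour 3, next for Cd209b (5.33), had a B cell mean of 1.34 and treated tumour 1, with the least Cd209b of the treated (2.32), one of 4.02. Vehicle tumour 4 had 3.54 for Cd209b and a B cell mean of 3.01, and vehicle tumour 7 had 2.31 and 4.58. The B cell means spanned -0.16 to 5.61 in treated and -0.54 to 4.58 in vehicle tumours, 10 of 10 B cell genes had a positive difference, 0 passed and 0 had an unadjusted p under 0.05, and their part in the Cd209b values was not tested. With the hepatocyte mean as a covariate the Cd209b difference was 2.79. Cd209c, the remaining measured gene of the cluster and outside the set, differed by 1.24 ± 0.43 (SE; limma, adjusted p = 0.113), with 4 of 5 treated tumours above every vehicle tumour.

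**Figure D2:**
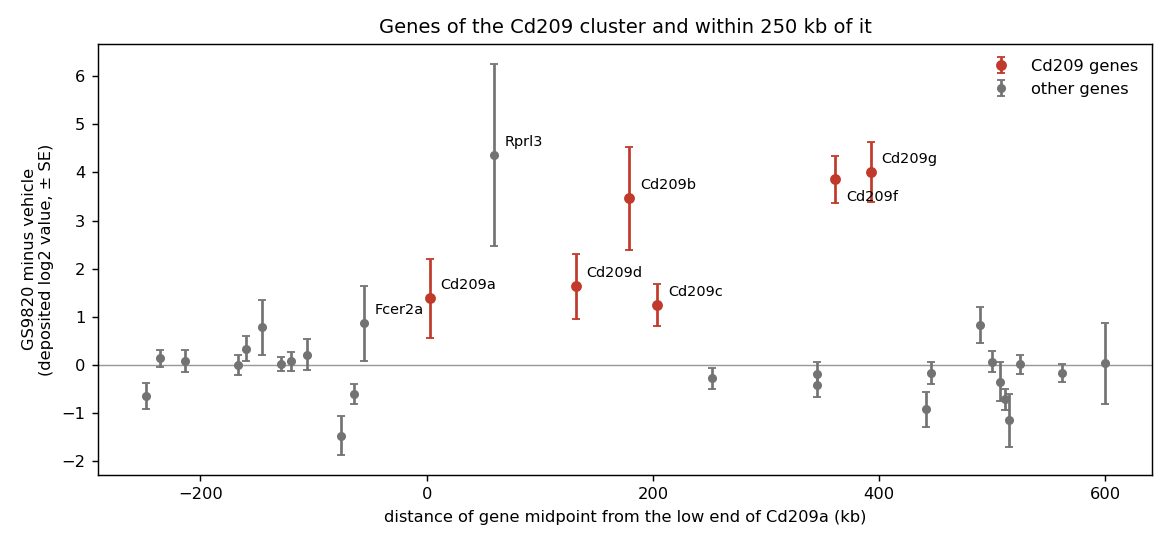
GS9820 minus vehicle difference in deposited log2 value (y axis, with SE) of each kept gene of the Cd209 cluster (red) and within 250 kb of it (grey), by distance of the gene's midpoint from the low end of Cd209a in kilobases. All 6 measured Cd209 genes lie above 0, with Cd209b, Cd209f and Cd209g the highest of the 6, while the 26 neighbours have a median of -0.001.

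Genes around the lectins showed no shared shift. The cluster spans 394 kb of chromosome 8, and 26 other genes were kept within it or within 250 kb of its ends. None of the 26 rose and none fell, 7 had an unadjusted p under 0.05, and their median difference was -0.001. Their differences spanned -1.48 (Mcemp1, a mast cell and myeloid membrane protein) to 4.37 (Rprl3, an RNA of the ribonuclease P family; SE 1.89; limma, adjusted p = 0.18). Fcer2a, the low-affinity IgE receptor of B cells next to Cd209a, differed by 0.86 ± 0.78 (SE). Mcemp1, Rprl3 and Fcer2a were chosen after their values were seen.

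The resident macrophage receptors did not follow as a block. Lyve1 (ENSMUSG00000030787, chr7:110850607-110863239, minus strand), a hyaluronan receptor, had 5.14, 7.36, 7.64, 7.31 and 5.95 in treated tumours 1 to 5, against a lowest of 3.96, a median of 4.49 and a highest of 7.49 in vehicle tumours. Vehicle tumours 1 and 4 (7.49 and 6.30) overlapped the treated group and the other 5 lay below it. The difference was 1.60 ± 0.64 (SE; limma, adjusted p = 0.154; range over all settings 0.0219 to 0.366). The mean of 7 lymphatic endothelial genes other than Lyve1 was 4.84 to 6.34 in treated and 2.28 to 4.88 in vehicle tumours. Vehicle tumour 1, with the most Lyve1 of its group, had the lowest mean (2.28), while treated tumour 1 was the lowest of the treated for both (5.14 and 4.84). The relation of this mean to Lyve1 over the tumours was not tested. With Lyve1, 8 of 8 had a positive difference, with a median of 1.60, and 7 had an unadjusted p under 0.05. The 1 that passed was Fgl2 (difference 1.61 ± 0.36, SE, limma, adjusted p = 0.0425). Fgl2 is not limited to lymphatic vessels. In sorted spleen cells its deposited log2 values were 6.80 to 8.43 in vehicle monocytes and 10.76 to 12.08 in treated PMN. The part of leukocytes in its tumour difference was not tested. Prox1, the transcription factor that defines lymphatic endothelium, named after its value was seen, differed by 1.73 ± 0.50 (SE; limma, adjusted p = 0.0742). The mean of 6 genes of liver sinusoids and Kupffer cells, such as Stab2 and Timd4, was 1.77 to 4.88 in treated and 0.81 to 3.02 in vehicle tumours, with 6 of 6 differences positive, a median of 1.47, 0 past the threshold and 1 at an unadjusted p under 0.05. It was highest in treated tumours 4 (4.88) and 3 (4.64) and vehicle tumour 4 (3.02), which were also high for Lyve1 (7.31, 7.64 and 6.30) and for Cd209b (8.17, 5.33 and 3.54), while vehicle tumour 1 had 1.96. The hepatocyte means of those 3 high tumours were 3.30, 11.56 and 6.48, and treated tumour 1, with 7.13, had a sinusoidal and Kupffer mean of 2.89. Timd4, Fcna and Cd5l of this list also stand in the list of other resident macrophage genes. The part of lymphatic vessels or liver cells in the Lyve1 values was not tested.

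Folr2 (ENSMUSG00000032725, chr7:101839988-101857194, minus strand), folate receptor beta, had 3.99, 6.42, 6.11, 3.75 and 6.18 in treated tumours 1 to 5, against a lowest of 3.06, a median of 4.08 and a highest of 7.24 in vehicle tumours. No treated tumour exceeded vehicle tumour 1, and treated tumours 1 and 4 lay below the vehicle median. The difference was 0.95 ± 0.70 (SE; limma, adjusted p = 0.424; 95% interval -0.57 to 2.47). Cd163 (ENSMUSG00000008845, chr6:124304656-124330527, plus strand), the receptor that clears haemoglobin bound to haptoglobin, was split the same way, with treated tumours 1 and 4 below the vehicle median. It had 4.53, 7.54, 7.17, 3.80 and 6.12 in treated tumours 1 to 5, against a lowest of 3.23, a median of 4.86 and a highest of 6.73 in vehicle tumours. Its difference was 1.01 ± 0.71 (SE; limma, adjusted p = 0.396; 95% interval -0.52 to 2.55).

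Mrc1 (ENSMUSG00000026712, chr2:14229392-14332057, plus strand), the mannose receptor and the most abundant of the 10 on this per-kilobase scale, differed least. It had 5.88, 8.58, 8.54, 7.26 and 8.48 in treated tumours 1 to 5, against a lowest of 6.44, a median of 7.51 and a highest of 8.99 in vehicle tumours. Treated tumour 1 was below and vehicle tumour 1 above all others, as they were for the pan-macrophage mean. The difference was 0.19 ± 0.51 (SE; limma, adjusted p = 0.842; 95% interval -0.91 to 1.29). Measured against the pan-macrophage mean, Mrc1 lay at 0.35 ± 0.48 (SD, n = 5) in treated and 0.25 ± 0.68 (SD, n = 7) in vehicle tumours.

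Mgl2 (ENSMUSG00000040950, chr11:70130329-70137550, plus strand), a galactose-type lectin of alternatively activated macrophages and a subset of dendritic cells, lay between these. It had 6.06, 8.19, 6.66, 7.18 and 8.57 in treated tumours 1 to 5, against a lowest of 5.03, a median of 5.34 and a highest of 7.42 in vehicle tumours. Vehicle tumours 6 and 7 reached 7.42 each, and the other 5 stayed at or below 5.69, under every treated tumour. The difference was 1.43 ± 0.55 (SE; limma, adjusted p = 0.141; range over all settings 0.0430 to 0.371). Dendritic cell genes had a positive difference in 9 of 9 cases, 0 past the threshold and 2 at an unadjusted p under 0.05, with means of 3.52 to 5.60 in treated and 2.71 to 4.39 in vehicle tumours, and their part in the Mgl2 and Cd209a values was not tested.

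**Figure D3:**
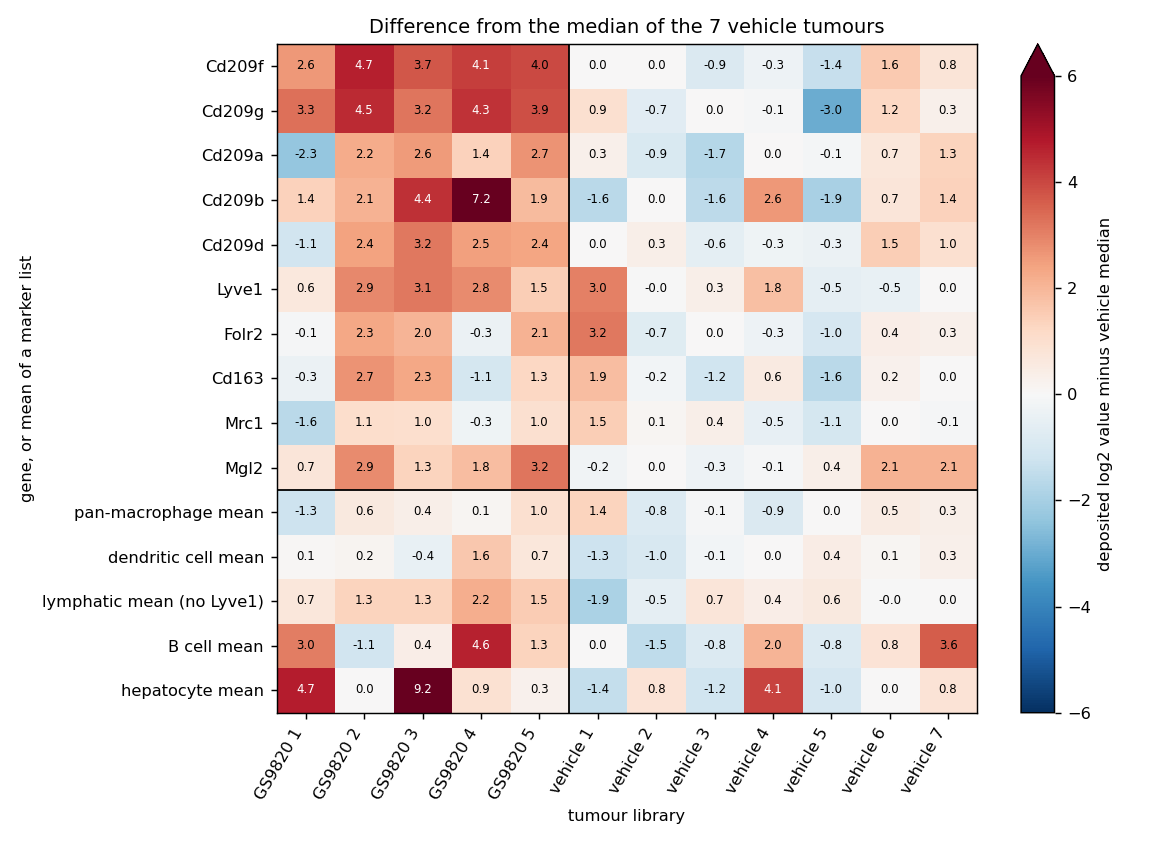
Deposited log2 value of each gene, or mean of a marker list, minus its median over the 7 vehicle tumours (colour and printed number), with treated tumours left of vehicle tumours. Cd209f, Cd209g, Cd209b, Lyve1 and Mgl2 are above the vehicle median in all 5 treated columns, while Cd209a, Cd209d, Folr2, Cd163 and Mrc1 change sign between treated columns.

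Other genes of resident macrophages had more positive than negative differences. Of 28 kept genes of that list, 22 had a positive difference and the median was 0.70. An unadjusted p under 0.05 was found for 8 of the 28, against 3982 of 16296 over all genes. Maf, a transcription factor of resident macrophages that other cells also express, was the 1 gene that rose (1.45 ± 0.31, SE; limma, adjusted p = 0.0356), and none fell. That call was lost without treated tumour 4 and with the acinar covariate. Timd4, a receptor for dying cells found on long-lived resident macrophages, differed by 2.64 ± 0.92 (SE; limma, adjusted p = 0.115). Genes of alternative activation were divided: 8 of 13 were positive, 0 passed, 7 had an unadjusted p under 0.05, and the median was 0.10. Retnla differed by 4.08 ± 1.16 (SE; limma, adjusted p = 0.0727) and Irf4 by 1.80 ± 0.51 (SE; limma, adjusted p = 0.0724), neither past the threshold, while the lowest of the list was -3.54, for Chil3, named after its value was seen. Of 16 inflammatory and monocyte-derived macrophage genes 4 were positive, the median was -0.47, none rose and Cd9, a tetraspanin, fell by 0.96 ± 0.21 (SE; limma, adjusted p = 0.0408), a call lost in the same settings as that of Maf.

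Across vehicle tumours, where treatment plays no part, the 1 relation past the threshold was that of Cd209f with Cd209d. With so few tumours, a relation short of the threshold is not shown to be absent or weaker. Over the 7 vehicle tumours Pearson's r of Cd209f with Cd209d was 0.936 (exact permutation p = 0.00159, adjusted p = 0.0302 over 19 pairs) and Spearman's rho was 0.929 (exact permutation p = 0.00675, adjusted p = 0.0641). Without the 2 tumours farthest from the median of Cd209f, r was 0.968. It was the 1 pair of 19 past the threshold by r, and none passed by rho. Leaving out 1 vehicle tumour at a time kept r between 0.866 and 0.983, but with 6 tumours the adjusted exact p passed only without vehicle tumour 1 (0.0396) and reached 0.456 without vehicle tumour 6. Vehicle tumours 6 and 7 were highest for Cd209f (2.74 and 1.94) and Cd209d (2.06 and 1.53). They were also highest of the vehicle tumours for the islet mean (6.64 and 4.90) and the fibroblast mean (7.88 and 7.72). The acinar mean was highest in vehicle tumour 6 (9.45) and lowest in vehicle tumour 7 (2.55). The part of tissue makeup in this relation was not tested.

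Other relations did not pass by r. Cd209f and Cd209g had r = 0.771 (exact permutation p = 0.0425, adjusted p = 0.364) and rho = 0.821 (exact permutation p = 0.0341, adjusted p = 0.216). Without the 2 farthest tumours r was 0.224, in a smaller set with a narrower range of Cd209f. With 1 vehicle tumour left out that r ran from 0.628 to 0.854. Cd209f had r = 0.759 with Mgl2 (rho 0.536), 0.621 with Cd209a (rho 0.786), 0.522 each with Cd209b (rho 0.464) and Cd163 (rho 0.607), 0.308 with Folr2 (rho 0.75), 0.283 with Mrc1 (rho 0.286) and -0.08 with Lyve1 (rho 0.07). With the pan-macrophage mean its r was 0.309 (rho 0.571), and the adjusted exact permutation p of these 8 relations ran from 0.364 to 0.858. Over all 12 tumours after subtraction of the group means, r of Cd209f was 0.762 with Mgl2 and 0.759 with Cd209d (permutation within groups, adjusted p = 0.0541 and 0.0416). Cd209g ordered the tumours much as Folr2 did (rho 0.964, exact permutation p = 0.00278, adjusted p = 0.0528; r 0.645, exact permutation p = 0.155, adjusted p = 0.420). That r was 0.902 without vehicle tumour 1, with an adjusted exact permutation p of 0.0264. Over the 7 vehicle tumours Cd209g had r = 0.719 with Cd163 (rho 0.643), 0.695 with Mrc1 (rho 0.5) and 0.513 with Cd209d (rho 0.571). It had 0.404 with Lyve1 (rho 0.321), 0.363 with Cd209b (rho 0.25), 0.300 with Mgl2 (rho 0.179) and 0.282 with Cd209a (rho 0.643). With the pan-macrophage mean its r was 0.418 (rho 0.714). The adjusted exact permutation p of these relations of Cd209g ran from 0.364 to 0.586.

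**Figure D4:**
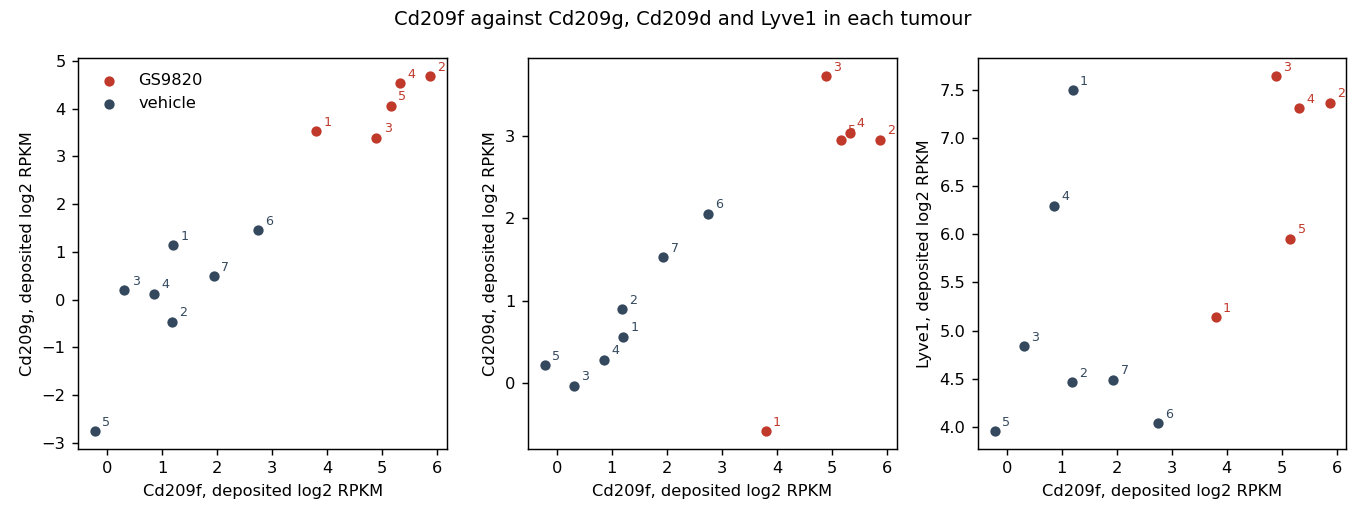
Deposited log2 RPKM of Cd209f (x axis) against that of Cd209g, Cd209d and Lyve1 (y axes) in each GS9820 tumour (red) and vehicle tumour (dark), numbered by replicate. In the 7 vehicle tumours Cd209d rises with Cd209f (r 0.936) and Lyve1 does not (r -0.08), and treated tumour 1 has the least Cd209d while its Cd209f stays above all vehicle tumours.

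Over all 12 tumours Cd209f and Cd209g ranked near the top for each other, and they ranked lower after subtraction of the group means. By Pearson's r over the 12 tumours among 13397 genes, Cd209g ranked 2 for Cd209f and Cd209f ranked 3 for Cd209g (r = 0.952). The 5 most like Cd209f outside the set were Npr1 (0.968), the natriuretic peptide receptor, Ebf3 (0.947), Atp10d (0.946), C1rb (0.941) and Slc6a2 (0.933). Those most like Cd209g were Npr1 (0.965), Ogn (0.964), a small proteoglycan of connective tissue, Slc1a5 (0.936), Tril (0.910) and Syt15 (0.895). These values contain the difference between the groups. After subtraction of the group means, Cd209f was most like Atp10d (0.913), Ifi203 (0.908), Robo4 (0.901), Nynrin (0.891) and P3h3 (0.885), and the genes most like Cd209g included Sympk (0.888), Asrgl1 (0.880), Fyb (0.863) and Cpsf2 (0.851). No gene stood in both of these last lists, and Cd209f and Cd209g had r = 0.754 with each other on that scale. There Cd209g ranked 96 for Cd209f and Cd209f ranked 73 for Cd209g, among the same 13397 genes.

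In sorted spleen cells the 6 measured genes showed no treatment difference past the threshold. Limma called 0% of 13968 genes in PMN, in monocytes and in the difference between their treatment effects, with 430, 335 and 269 genes at an unadjusted p under 0.05 and none of the 6 among them. Treated values lay wholly above vehicle values for 1.78% of genes in PMN and 1.47% in monocytes, and wholly below for 1.99% in PMN and 1.9% in monocytes, which held for 0 of the 6. In monocytes Mrc1 had 2.25, 4.43, 3.93 and 5.05 in treated libraries 1 to 4, against 1.30, 3.49 and 3.07 in vehicle libraries 1 to 3. Treated libraries 2 to 4 were above every vehicle library, and the difference was 1.30 ± 0.74 (SE; limma, adjusted p = 0.9955). In PMN Mrc1 had 3.40, 1.92, 3.24 and 3.62 in treated libraries, against 3.47, 4.50 and 2.15 in vehicle libraries, a difference of -0.33 ± 0.74 (SE; limma, adjusted p = 1). The difference of these treatment effects was 1.63 ± 1.04 (SE; limma, adjusted p = 0.9998).

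The Cd209 genes and Mgl2 varied widely between sorted libraries of a single group. Cd209a had 0.41, 3.19, 0.93 and 4.07 in treated monocytes and -1.52, 0.85 and 3.69 in vehicle monocytes, with a difference of 1.14 ± 1.38 (SE). In PMN it had 4.55, 2.35, 3.08 and 5.48 in treated and 0.47, 4.93 and 4.58 in vehicle libraries, with a difference of 0.54 ± 1.38 (SE). Treated PMN libraries 1 and 4 and vehicle PMN library 2 were the 3 highest of 7 for Cd209d (2.49, 2.69 and 2.00), Mgl2 (4.37, 3.81 and 4.89) and Cd209c (2.46, 3.03 and 2.41). B cell means in these 3 libraries were 4.10, 3.90 and 4.24 and dendritic cell means 3.30, 3.49 and 3.36, inside the PMN ranges of 3.84 to 4.63 and 3.06 to 3.58. The labels name 2 library kits without saying which library had which, and the part of the kit was not tested.

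Lyve1 separated the cell types and was lower in monocytes. It had 2.61, 2.10 and -1.49 in vehicle monocytes, against 4.63, 3.25 and 3.71 in vehicle PMN, with no overlap. The difference was -2.79 ± 0.83 (SE; limma without pairing of same-numbered libraries, adjusted p = 0.0110), and it ran from -3.56 to -1.51 with 1 library left out. Of all genes 60.1% passed, 27.2% lower and 32.8% higher in monocytes, and 27.1% had monocyte values wholly below and 32.4% wholly above PMN values, so 1 gene of 6 is no more than this background gives. Treated libraries, given as values, had -0.26, -0.56, 0.88 and 0.42 in monocytes against 4.24, 3.58, 3.88 and 4.38 in PMN. Neutrophil genes averaged 7.89 to 10.2 in monocyte libraries and 11.6 to 12.2 in PMN libraries, and monocyte genes 8.83 to 10.4 in monocytes and 6.76 to 7.46 in PMN. Among vehicle monocytes, library 3, with the least Lyve1 (-1.49), had the lowest neutrophil mean (7.89), against 10.2 in library 1 (Lyve1 2.61) and 9.99 in library 2 (Lyve1 2.10). Treated monocytes did not repeat this, since library 1 had the highest neutrophil mean of the 4 (9.67) with Lyve1 at -0.26. Genes of other cell types were also lower in vehicle monocytes than in vehicle PMN past the threshold. These were 10 of 10 B cell genes and 6 of 6 genes of liver sinusoids and Kupffer cells. Of 15 pan-macrophage genes 6 were lower and 3 higher. The part of carried-over PMN RNA, or of other cells in the PMN sorts, was not tested.

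The other 5 genes did not separate the cell types past the threshold. Mgl2 had 4.15, 5.68 and 3.51 in vehicle monocytes and 0.94, 4.89 and 1.44 in vehicle PMN, a difference of 2.02 ± 1.12 (SE; limma, adjusted p = 0.136), which passed without vehicle PMN library 2 (3.26; limma, adjusted p = 0.0172). Cd209a differed by -2.32 ± 1.48 (SE), and passed without vehicle PMN library 1 (-3.74; limma, adjusted p = 0.0448) or without vehicle monocyte library 3 (-3.66; limma, adjusted p = 0.0475). Cd163 differed by -0.71 ± 0.57 (SE) and by -1.45 without vehicle monocyte library 3 (limma, adjusted p = 0.0169). Mrc1 differed by -0.75 ± 0.79 (SE) and Cd209d by -0.92 ± 0.99 (SE). The highest of all 6 genes in any sorted library was 5.68, for Mgl2, while tumours reached 8.99 for Mrc1, values that were normalized as separate sets and were not compared by a test.

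**Figure D5:**
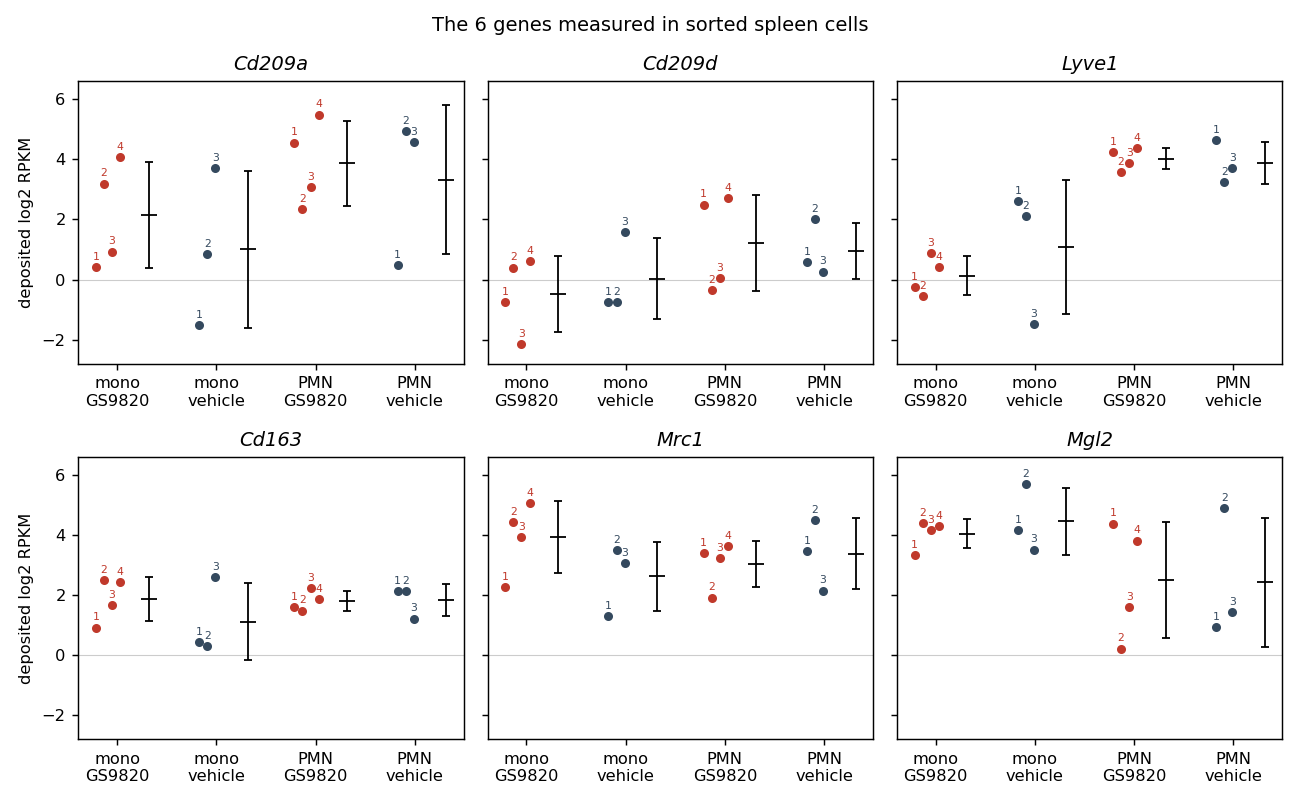
Deposited log2 RPKM (y axis) of the 6 genes measured in sorted spleen cells, in treated (red) and vehicle (dark) libraries of monocytes and PMN, numbered by replicate, with the mean and SD as a bar. For Lyve1 all vehicle monocyte libraries (-1.49 to 2.61) lie below all vehicle PMN libraries (3.25 to 4.63), and treated and vehicle libraries overlap within each cell type for all 6 genes.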

How the data were processed

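Processed values of 12 whole tumours (5 treated, 7 vehicle) and 14 libraries of sorted cells were used, starting from the deposited tables. Per the submitters' processing notes, TopHat2, STAR and limma were used with the assembly mm10, with no version or order given. Per the labels' protocols, tumour libraries were stranded and depleted of ribosomal RNA, and 1 of 2 kits was used for each library of sorted cells. The deposited values are on a log2 scale, named log2 RPKM by the authors, and sum after reversal of the log2 to 1552390 to 1552450 per tumour library and 1429080 to 1430330 per sorted library, so they hold a near-identical distribution and no recoverable depth. Fold differences are therefore relative within a library.

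Identifiers were matched to GENCODE M21 (16039 of 16322 tumour and 13886 of 14131 sorted-cell genes), and no pair of libraries was identical (0 pairs). Genes were kept where 5 or more tumours, or 3 or more sorted libraries, reached a value of 0, which left 16296 and 13968, including all 10 and all 6 members. Differences were tested, two-sided, with limma 3.58.1 (linear models moderated by eBayes, trend on) in R 4.3.3, with Benjamini-Hochberg adjustment over all kept genes of a comparison and a threshold of 0.05. Tumours formed 1 fit and the 4 sorted groups another. Correlations used all 5040 orders of the 7 vehicle tumours, and sequences were compared with Biopython 1.88 and drawn values with matplotlib 3.10.9 in Python 3.11.15. The steps were tested on simulated data.

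The members, lists and tests were chosen with earlier results of these data known. All 10 members are named, and 1 gene that the rule on likeness names is not reported here. Of each list up to 4 genes past the threshold are named, or else 2 of smallest p, and other names are marked as chosen after their values were seen. Same-numbered vehicle monocyte and PMN libraries deviated together (3 of 3 correlations over 0.1, from 0.105 to 0.462), but the values given for that comparison come from a fit without pairing. With the replicate number as a block over all sorted libraries no member's call changed. That block also joins treated and vehicle libraries of the same number, so pairing of the vehicle libraries alone was not tested. Alternatives were no filter and a stricter one (2), log2(value + 1), median centring, quantile normalization, eBayes without trend or robust, array weights, the replicate number as a block, marker means as covariates, each cell type fitted alone and each library left out.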

Additional observations from a re-analysis of the deposited data

Results flagged for a closer look

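Libraries far from the rest of their group were found for 3 of the 32 gene and group combinations of 4 or more libraries, where chance gives about 1 in 20. Treated tumour 1 was low for Cd209a, at -1.39, with the nearest of the other treated tumours at 2.34. It was also low for Cd209d, at -0.58, with the nearest at 2.95. The same tumour had the lowest pan-macrophage mean (5.99) and a hepatocyte mean of 7.13, while its Cd209f and Cd209g values, 3.79 and 3.53, stayed above all vehicle tumours. Vehicle tumour 1 was high for Folr2, at 7.24, with the nearest vehicle tumour at 4.47, and it had the highest pan-macrophage mean (8.60) and the lowest lymphatic mean without Lyve1 (2.28).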

How the results depend on the processing

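The differences of Cd209f and Cd209g in tumours kept their direction in all settings, at 3.31 to 4.34 and 2.99 to 4.39, and at 3.63 to 4.16 and 3.55 to 4.25 with 1 tumour left out. The count of other members past the threshold in tumours, 0, became 3 with array quality weights (Lyve1, Cd209d and Cd209b) and 2 with the replicate number as a block (Mgl2 and Cd209b), and ran from 0 to 2 with 1 tumour left out (2 without treated tumour 1). The count over all genes, 359, became 2764 with weights, 166 with the block, 0 with the acinar mean and 616 with the hepatocyte mean as a covariate. With 1 tumour left out it ran from 0 to 1693: 0, 31 and 122 without treated tumours 4, 2 and 5, 179, 97, 112, 68, 1693 and 123 without vehicle tumours 1, 2, 3, 4, 5 and 7. Tumour replicate numbers were shared labels only (2 of 5 correlations over 0.1, and 2 of 10 libraries most like their own number), as in treated against vehicle PMN (0 of 3; 3 of 6 libraries) and monocytes (1 of 3; 2 of 6). Sorted-cell replicate blocks changed no member's call. Apart from left-out libraries, 394 results for single genes or pairs kept their direction and side of the threshold, 5 newly passed and 6 turned. Signs turned, with no call, for Lyve1 in PMN with weights (-0.0149), for Cd209a (-0.0525), Cd209d (-0.16) and Mgl2 (-0.19) in PMN with the block, for Cd209a in the difference of effects with weights (-1.47) and for r of Cd209f with Lyve1 over all 12 tumours after centring (0.161). Leaving out 1 library gave -0.0184 to 0.658 for Mrc1 in tumours. In PMN it gave -0.34 to 0.13 for Cd163, -0.94 to 0.24 for Mrc1, -0.15 to 0.54 for Lyve1, -0.89 to 1.34 for Cd209a, -0.22 to 0.80 for Cd209d and -0.67 to 1.31 for Mgl2. In monocytes it gave -0.13 to 2.48 for Cd209a, -0.90 to 0.28 for Cd209d and -0.87 to 0.21 for Mgl2, and for the difference of effects -0.66 to 2.03, -1.30 to 0.00745 and -1.71 to 0.26. The count for monocytes minus PMN ran from 1 to 3. The count of correlated pairs ran from 0 to 2, and r from -0.425 to 0.257 for Cd209f with Lyve1, -0.159 to 0.442 for Cd209f with Mrc1 and -0.148 to 0.585 for Cd209g with Cd209b. The cause of these shifts was not tested. Depth is unknown and limits what can be said of values below 0.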

Other observations

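Markers of several other tissues had mostly positive differences in treated against vehicle tumours, where 0.878% of all genes rose and 3982 of 16296 had an unadjusted p under 0.05. Of 10 islet genes all 10 had a positive difference, with a median of 4.70, and 4 rose: Chga, a protein of hormone granules, by 4.17 ± 0.90 (SE; limma, adjusted p = 0.0371), and Chgb, Ppy and G6pc2. Of 14 acinar genes all 14 had a positive difference, with a median of 2.20, and Nr5a2, a transcription factor of acinar cells, rose by 2.28 ± 0.41 (SE; limma, adjusted p = 0.0219). Of 9 adipocyte genes 8 were positive, with a median of 1.78, 0 passed and 7 had an unadjusted p under 0.05. Of 10 blood endothelial genes 9 had a positive difference and 2 rose, Kdr, the main receptor for vascular endothelial growth factor, by 1.06 ± 0.23 (SE; limma, adjusted p = 0.0358) and Egfl7, a vessel matrix protein, by 1.02 ± 0.22 (SE; limma, adjusted p = 0.0376). Of 10 fibroblast genes all 10 had a positive difference and 2 rose, Dpt by 1.99 ± 0.44 (SE; limma, adjusted p = 0.0400) and Dcn by 1.61 ± 0.33 (SE; limma, adjusted p = 0.0339), both matrix proteins. Each of these calls was lost without treated tumour 4 and with the acinar mean as a covariate, where 0 genes passed. Of 11 neutrophil genes 0 had a positive difference, 0 passed and 3 had an unadjusted p under 0.05, with a median of -1.24. Il1r2, the decoy receptor for interleukin 1, differed by -2.74 ± 0.66 (SE; limma, adjusted p = 0.0501). All 9 T cell genes had a positive difference, with a median of 1.46, 0 passed and 1 had an unadjusted p under 0.05.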
